A study of Mus musculus with 6 samples.

Results

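The circadian clock genes are the 9 genes Arntl (also called Bmal1), Clock, Per1, Per2, Cry1, Cry2, Nr1d1, Nr1d2 and Dbp, taken by name from the 35853 genes to which the sequenced transcripts were assigned. Each had 1 gene entry, and the estimated counts and TPM (a transcript level per length and per library) of its transcripts were summed. RNA had been sequenced from blood neutrophils of wild-type BALB/C mice bearing orthotopic tumours of 4T1, a mouse mammary carcinoma line, with blood collected 4 weeks after implantation. Neutrophils carrying Ly6G had been sorted into Ly6C-high cells (3 libraries) and Ly6C-low cells (3 libraries); all 6 libraries shared strain, genotype, tissue and tumour, and no tumour-free group is part of the comparison. The labels give neither the time of day at which blood was drawn nor whether libraries came from separate or pooled mice, so every p-value rests on library-to-library spread, and that spread may be technical.

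The mammalian clock is a transcription loop. BMAL1 (encoded by Arntl) and CLOCK bind E-box sequences as a pair and switch on the Per and Cry genes, whose proteins return to the nucleus and inhibit that pair. A second loop joins through Nr1d1 and Nr1d2, which encode the REV-ERB repressors of Arntl, and through Dbp, which encodes an activator acting on D-box sequences. In mouse neutrophils BMAL1 is known to take part in the daily cycle of ageing in the circulation, and Per1 is in addition induced directly by cyclic AMP and glucocorticoid signals in many tissues.

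Promoter windows, 250 bases before to 50 bases after a gene's start, were found in RefSeq on build GRCm38.p6 for 8 of the 9 members, 12 windows in all; Per2 had no entry. The E-box was searched as CACGTG, which reads the same on both strands, and it was present in 2 of the 12 windows, against 7.15% of all 32851 windows. The 2 windows belonged to Per1 and Cry1, the members with the highest transcript levels in these neutrophils. The other window of Per1 and all windows of Clock, Arntl, Cry2, Dbp and Nr1d2 held none. Whether the E-box goes with transcript level was not tested. The 2 windows are shown with that of Nr1d1, the member with the lowest level, which also held none. Capitals mark the E-box. The windows are chr11:69098699-69098998 (plus strand) for Per1, chr10:85185005-85185304 (minus strand) for Cry1 and chr11:98775328-98775627 (minus strand) for Nr1d1.
Per1: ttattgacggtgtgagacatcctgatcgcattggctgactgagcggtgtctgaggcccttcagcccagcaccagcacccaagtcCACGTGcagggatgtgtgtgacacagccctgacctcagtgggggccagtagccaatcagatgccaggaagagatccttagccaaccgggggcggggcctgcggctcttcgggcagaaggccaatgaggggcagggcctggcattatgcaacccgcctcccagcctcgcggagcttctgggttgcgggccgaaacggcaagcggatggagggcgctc
Cry1: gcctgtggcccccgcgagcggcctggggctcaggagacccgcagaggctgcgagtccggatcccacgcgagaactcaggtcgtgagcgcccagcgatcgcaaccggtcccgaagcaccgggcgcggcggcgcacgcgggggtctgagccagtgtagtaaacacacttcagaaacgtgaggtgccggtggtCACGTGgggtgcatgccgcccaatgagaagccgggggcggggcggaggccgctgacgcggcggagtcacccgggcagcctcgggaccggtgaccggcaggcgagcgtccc
Nr1d1: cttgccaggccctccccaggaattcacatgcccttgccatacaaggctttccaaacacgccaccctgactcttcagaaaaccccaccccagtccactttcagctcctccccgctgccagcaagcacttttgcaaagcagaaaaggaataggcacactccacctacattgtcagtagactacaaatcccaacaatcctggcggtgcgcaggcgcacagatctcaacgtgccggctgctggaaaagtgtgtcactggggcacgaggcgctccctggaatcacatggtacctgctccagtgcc

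The first base of the E-box lay at position -166 from the start of Per1 and at -60 from that of Cry1. The D-box, searched on both strands as TTATGNAA, was found in the Per1 window alone among the members' windows, at -24, and in 3.38% of all windows. The half-site of the ROR and REV-ERB receptors, searched on both strands as AGGTCA, was found in windows of Per1, Clock, Arntl and Nr1d2 and in 16.3% of all windows. The half-site of the cyclic AMP response element (CRE), searched on both strands as TGACG, was found in windows of Per1, Cry1 and Cry2. It was present in 20.8% of all windows. All of these are matches of letters in a short window, not measured binding, and sites outside the windows were not searched.

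On the TPM scale Cry1 and Per1 were the most abundant members and the REV-ERB genes the least. Cry1, a repressor of the loop, averaged 15.7 ± 1.79 TPM over the 6 libraries, higher than 82.3% of the 21799 protein-coding genes in the table, and Per1, another repressor, 12.6 ± 3.09 TPM, higher than 80.2%. Per2 averaged 5.24 ± 1.70 TPM and Clock, the activator partner, 2.85 ± 0.370 TPM (SD, n = 6 each). Cry2, Arntl and Dbp lay close together, at 1.08 ± 0.308, 1.00 ± 0.276 and 0.808 ± 0.244 TPM. The REV-ERB genes were lowest, with Nr1d2 at 0.152 ± 0.0631 TPM and Nr1d1 at 0.0233 ± 0.0294 TPM. Among neighbours in this order the ranges over libraries did not overlap between Clock and Cry2, between Dbp and Nr1d2, or between Nr1d2 and Nr1d1. For Dbp, however, 79.39% of the TPM came from a transcript of 815 bases annotated as a retained intron. The main protein-coding transcript of Dbp measured 0 to 0.201 TPM, which overlapped Nr1d2 at 0.0703 to 0.238 TPM. The place of Dbp above Nr1d2 thus rests on the retained-intron transcript. The ranges of Cry1 and Per1, Per1 and Per2, and Per2 and Clock overlapped, although each of these pairs kept its order within all 6 libraries. Cry2 exceeded Arntl in 4 of 6 libraries and Arntl exceeded Dbp in 5 of 6, so these 3 levels were not separated beyond their spread.

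**Figure D1:**
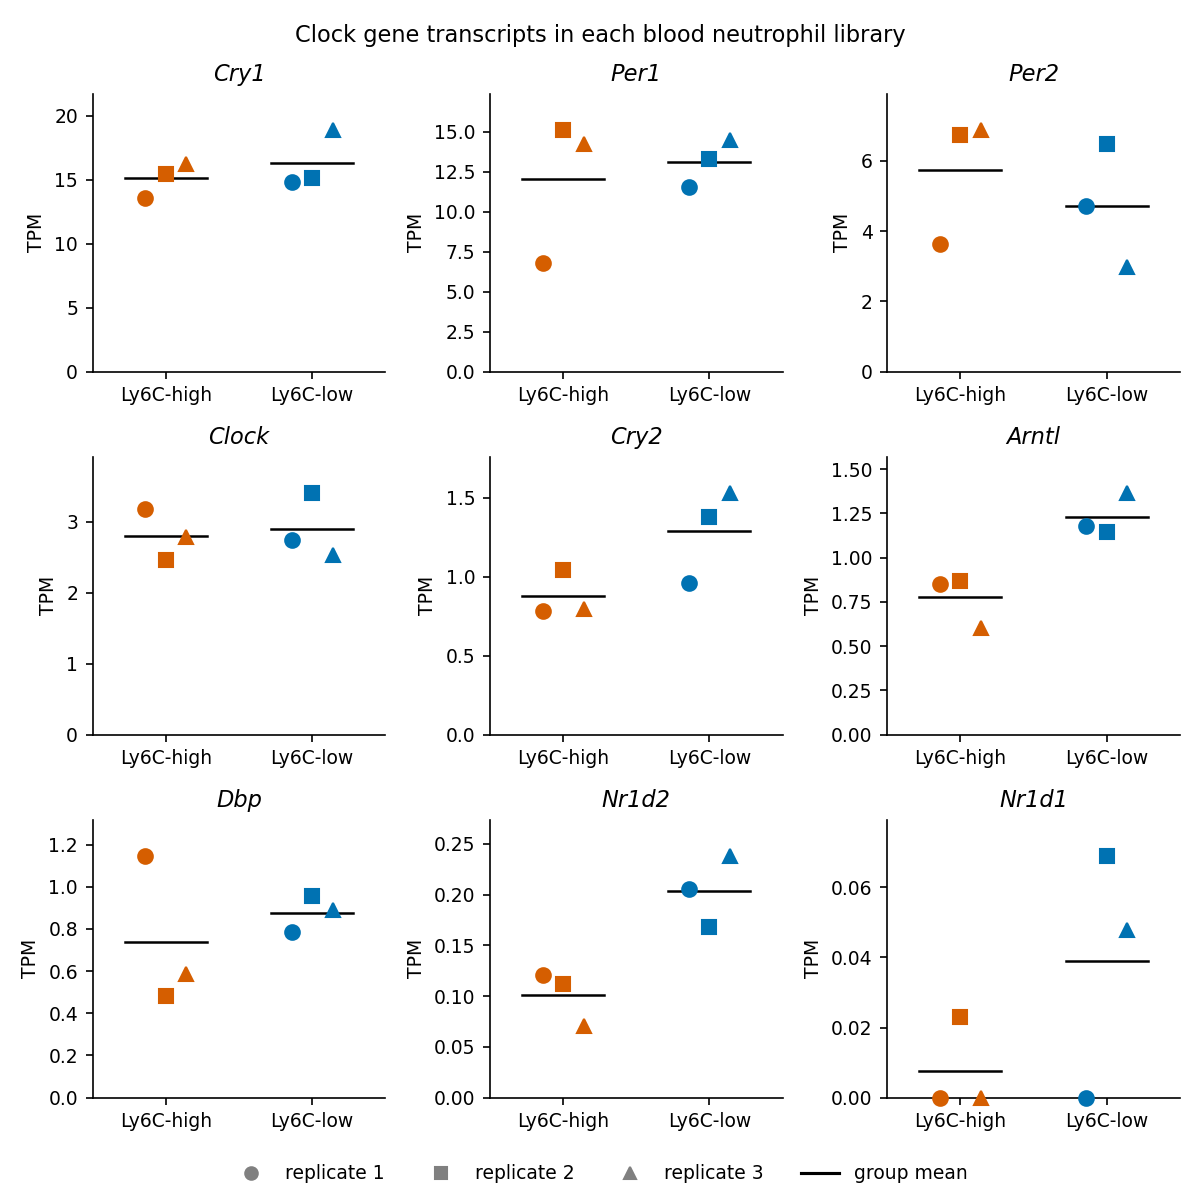
Level of each clock gene in TPM (vertical axes, each from 0 and on its own scale) in the Ly6C-high (left, orange) and Ly6C-low (right, blue) libraries; symbols are replicate numbers and bars are group means of 3 libraries. The groups of Arntl and Nr1d2 separate, with lower points in the Ly6C-high libraries. Per1 spreads widely in the Ly6C-high group, through replicate 1, and Per2 in both groups.

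No clock gene passed the test between Ly6C-high and Ly6C-low neutrophils. The 8 members that passed the filter on low counts were tested with edgeR's quasi-likelihood test over all 11406 genes kept, and 0 had an adjusted p under 0.05, where 0.0351% of all genes tested passed; Nr1d1 did not pass the filter. At an unadjusted p under 0.05 the count was also 0 of 8, against 14.3% of all genes, and limma voom and DESeq2 called 0 as well (DESeq2 gave no adjusted p for Arntl, Cry2, Nr1d2 and Dbp); with the replicate number as a block 0 of 8 passed, against 0.535% of all genes. Of the 8 members 3 had a log2 fold change (Ly6C-high over Ly6C-low) above 0 and 5 below, with a median of -0.13 beside -0.0045 for all genes tested. Nr1d2 and Dbp, both among the 5, passed the filter mainly through their Ly6C-low libraries, which favours values below 0. Nothing is read from this count or median about the members. In the same libraries Ly6c1 and Ly6c2, which encode the sorted surface protein, measured 8.38-fold and 7.46-fold higher in the Ly6C-high cells. In sorted bulk RNA, fewer cells expressing a gene and less of its RNA per cell cannot be told apart.

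Neither activator of the loop passed the test. Arntl measured 2.22, 2.08 and 1.52 CPM (counts scaled to TMM-adjusted library size) in the Ly6C-high libraries, against 2.69, 2.52 and 2.28 CPM in the Ly6C-low libraries, which came from 31 to 42 and 43 to 54 counts. All 3 Ly6C-high libraries lay under all 3 Ly6C-low libraries, on the TPM scale too, an order that 10.9% of all genes tested showed in CPM. In TPM, Ly6C-low replicate 3 held 0.527 of its 1.37 in a transcript annotated as a retained intron. That transcript measured 0 in every Ly6C-high library. Without it, Ly6C-low replicate 3 would not lie above all Ly6C-high libraries in TPM. The log2 fold change was -0.37 ± 0.25 (standard error), its 95% interval reached from -0.90 to 0.17, and edgeR's adjusted p was 0.532. It was -0.21 without Ly6C-high replicate 3 and -0.57 with length-scaled TPM. The retained-intron transcript weighs more in TPM, at 12.07% of the gene's TPM against 2.94% of its counts. Clock measured 19.4, 16.8 and 17.4 CPM in the Ly6C-high libraries, against 17.5, 18.2 and 15.1 CPM in the Ly6C-low libraries. These groups overlapped, and the interval of its log2 fold change, -0.19 to 0.34, was the narrowest of the 8 after that of Cry1.

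Among the repressors, Cry1 was the steadiest. It measured 37.6, 40.6 and 43.9 CPM in the Ly6C-high libraries, against 38.4, 37.3 and 45.6 CPM in the Ly6C-low libraries. The groups overlapped throughout, with a log2 fold change of 0.01 and an interval of -0.22 to 0.24. Cry2, its paralogue, measured 2.91, 3.68 and 2.60 CPM in the Ly6C-high libraries, against 3.19, 4.66 and 5.04 CPM in the Ly6C-low libraries. Only Ly6C-high replicate 2 reached above the lowest Ly6C-low library. Cry2 had the smallest p of the 8 members, at -0.49 ± 0.23 on the log2 scale with an interval of -1.0 to 0.02 and an edgeR adjusted p of 0.368.

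Among the 4 members with a mean of at least 5 CPM (Per1, Per2, Cry1 and Clock), the Per genes spread most over the 6 libraries. Per1 measured 26.9, 55.1 and 55.1 CPM in Ly6C-high replicates 1, 2 and 3, against 40.4, 49.6 and 48.2 CPM in Ly6C-low replicates 1, 2 and 3. Ly6C-high replicate 1 was the lowest of all 6 and the other Ly6C-high libraries were the highest, so the groups overlapped completely. The log2 fold change was -0.01, with an interval of -0.71 to 0.69. Without Ly6C-high replicate 1 it was 0.26 (edgeR adjusted p 0.434), and without Ly6C-low replicate 2 or 3 it was 0.04 and 0.03. Per2 measured 20.3, 36.6 and 37.4 CPM in Ly6C-high replicates 1, 2 and 3, against 20.1, 33.2 and 14.8 CPM in Ly6C-low replicates 1, 2 and 3. The log2 fold change of Per2 was 0.47 ± 0.39, with an interval of -0.51 to 1.44 and an edgeR adjusted p of 0.638. Without Ly6C-low replicate 3 it was 0.24, and without Ly6C-low replicate 2 it was 0.85 (edgeR adjusted p 0.334). The highest library held 2.05 times the Per1 and 2.52 times the Per2 of the lowest, against 1.22 times for Cry1 and 1.28 times for Clock.

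Within groups the standard deviation of log2 CPM was 0.435 for Per1 and 0.545 for Per2. These exceeded the values of 96.9% and 98.2% of the 7261 genes with a mean of at least 5 CPM, whose median was 0.138. Cry1 at 0.136 and Clock at 0.126 sat near that median. The spread of Per1 lay mostly in the Ly6C-high group, where replicate 1 stood apart. Its standard deviation was 16.3 CPM in Ly6C-high and 4.93 CPM in Ly6C-low libraries, against 9.66 and 9.49 CPM for Per2. Per1 and Per2 did not always move together: the ratio of Per2 to Per1 in TPM was 0.538, 0.446 and 0.484 in Ly6C-high replicates 1, 2 and 3, against 0.410, 0.486 and 0.206 in Ly6C-low replicates 1, 2 and 3. Ly6C-low replicate 3, which stood apart from the other libraries on the first principal component of all genes (38.02, where the others lay between -19.65 and 3.91), held the lowest Per2 beside 48.2 CPM of Per1.

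**Figure D2:**
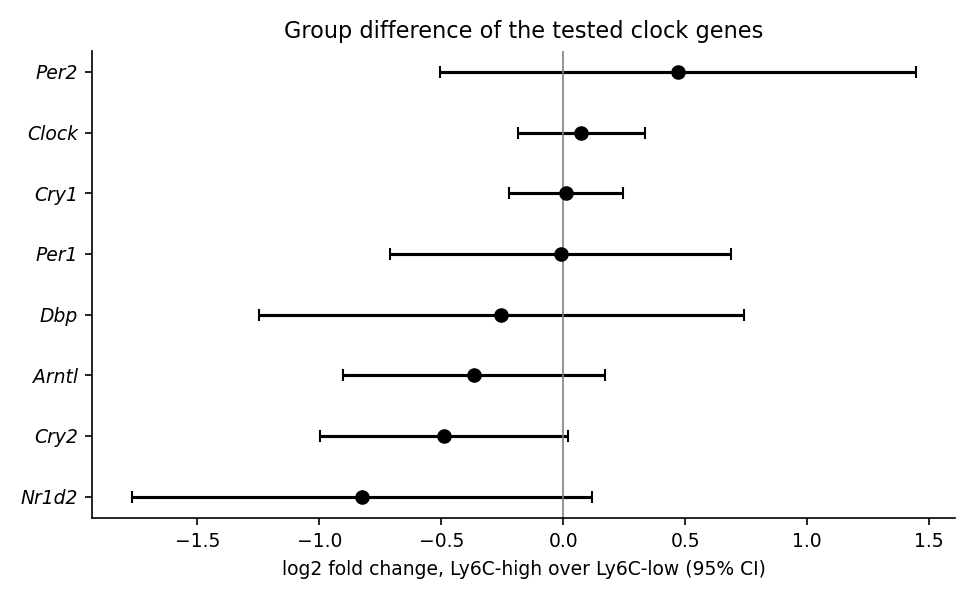
Log2 fold change of each tested clock gene, Ly6C-high over Ly6C-low, with its 95% confidence interval from the edgeR fit. Every interval includes 0; Cry1 has the narrowest and Dbp the widest.

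The REV-ERB genes of the second loop had few counts. Nr1d2 gave 10, 9 and 5 counts in the Ly6C-high libraries, against 17, 13 and 13 counts in the Ly6C-low libraries, or 0.529, 0.480 and 0.245 CPM against 0.849, 0.681 and 0.689 CPM. The groups did not overlap and were lower in Ly6C-high cells, but the gene had passed the filter through its Ly6C-low libraries (3 over the filter's level, against 0 Ly6C-high libraries), so a difference in that direction was built into its being tested. The log2 fold change of Nr1d2 was -0.83 ± 0.43, with an interval of -1.77 to 0.12 and an edgeR adjusted p of 0.412, and without Ly6C-high replicate 3 it was -0.55. Nr1d1 gave 0, 1 and 0 counts in the Ly6C-high libraries, against 0, 3 and 2 counts in the Ly6C-low libraries. Over 3 libraries each this is 1 count against 5, a ratio of 0.200 with an exact 95% counting interval of 0.00422 to 1.78, so no difference was detectable at this depth. In the libraries with 0 counts a level of up to 0.147 to 0.159 CPM (3 counts) would be allowed. The end of Nr1d1 lies opposite that of Thra, which encodes a thyroid hormone receptor, and they share 263 of the 3077 exonic bases of Nr1d1. Thra gave 44, 70 and 58 counts in the Ly6C-high libraries, against 45, 61 and 108 counts in the Ly6C-low libraries, and with the strand setting of the quantification not given, reads from the shared bases cannot be told apart.

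Dbp, the clock output gene, gave 16, 6 and 9 counts in the Ly6C-high libraries, against 11, 14 and 12 counts in the Ly6C-low libraries. The Ly6C-high libraries held both the highest and the lowest value, and 1 Ly6C-high and 3 Ly6C-low libraries were over the filter's level. The filter thus favoured a lower level in Ly6C-high cells for Dbp as well. The log2 fold change was -0.25, with an interval of -1.25 to 0.74, and was 0.0002 without Ly6C-high replicate 2. Of the reads assigned to Dbp 27.06% went to its main protein-coding transcript and 59.09% to a transcript annotated as a retained intron. Sphk2, a sphingosine kinase gene on the opposite strand with 808.4 to 1296.4 counts per library, shares 539 of the 2993 exonic bases of Dbp, so the few counts of Dbp are uncertain as a measure of its mRNA. In the better covered members a single protein-coding transcript held most reads, 99.97% for Per2, 99.85% for Cry1, 96.70% for Cry2, 79.64% for Arntl, 77.52% for Per1 and 62.66% for Clock.

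Apart from Nr1d2, whose filter favoured that direction, Arntl was the 1 tested member whose groups did not overlap, where 21.1% of all genes tested did not overlap, so nothing is read from it about the members. Marker genes of eosinophils and basophils also had lower means in the Ly6C-high libraries. All 8 eosinophil markers had a lower mean in the Ly6C-high libraries. Their summed levels were 36.1 to 48.9 CPM in the Ly6C-high and 62 to 67.5 CPM in the Ly6C-low libraries. Most of this sum was Siglecf (means of 31.2 CPM in Ly6C-high and 43.7 CPM in Ly6C-low libraries). Epx and Prg2, which encode eosinophil granule proteins, had 0 counts in the Ly6C-high libraries. In Ly6C-low replicates 1, 2 and 3 Epx had 0, 1 and 0 counts and Prg2 had 3, 14 and 2. Of the eosinophil markers Ear2 and Epx overlapped between the groups. All 6 basophil markers had lower means as well. Their summed levels were 2.38 to 4.26 CPM in the Ly6C-high libraries, against 5.39, 12.2 and 29.1 CPM in Ly6C-low replicates 1, 2 and 3. Of these markers Ms4a2, Fcer1a and Gata2 overlapped between the groups. The 7 neutrophil markers summed to 108000 to 113000 CPM in the Ly6C-high and 93000 to 102000 CPM in the Ly6C-low libraries. Most of this sum was S100a8 (means of 36450 CPM in Ly6C-high and 33160 CPM in Ly6C-low libraries) and S100a9 (53730 and 46580 CPM). By mean 6 of the 7 were higher in the Ly6C-high libraries and 1, Csf3r, was lower. Csf3r, Cxcr2 and Mmp9 overlapped between the groups. Of the 5 monocyte markers 4 were higher in every Ly6C-high library than in any Ly6C-low library. Ms4a6c was 2.05-fold, F13a1 1.73-fold, Ccr2 1.61-fold and Cx3cr1 5.50-fold higher in the Ly6C-high cells (edgeR adjusted p from 0.153 to 0.324). Cx3cr1 had 3 counts in each Ly6C-low library, against 13, 25 and 13 counts in Ly6C-high replicates 1, 2 and 3. It passed the filter through its Ly6C-high libraries, which favours a higher value there. Csf1r, the most abundant of the 5, averaged 342 CPM in Ly6C-high and 388 CPM in Ly6C-low libraries, also without overlap (edgeR adjusted p 0.405). The summed markers of T cells, B cells, NK cells, erythroid cells and platelets overlapped between the groups. The part of other cells in the levels of Arntl, Cry2 and Nr1d2 was not tested.

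The replicate numbers 1, 2 and 3 are shared by both groups, and the labels do not say what an equal number has in common. In a fit of replicate number and group, the terms for replicate number were tested together by edgeR for each gene. Of the 8 members 0 passed at an adjusted p under 0.05, against 0.552% of all genes tested, and 1 of 8, Per1, had an unadjusted p under 0.05, against 10.9% of all genes. Per1 differed among numbers by up to 0.64 on the log2 scale (adjusted p 0.315): replicate 2 lay 0.64 and replicate 3 lay 0.62 above replicate 1. Much of this range came from a single library. Dropping the Ly6C-high library numbered 1 reduced the range of Per1 to 0.28. With any other single library dropped it lay between 0.64 and 1.04. In both groups the library numbered 1 was the lowest for Per1, at 26.9 CPM in Ly6C-high and 40.4 CPM in Ly6C-low cells. How many of all genes have an equal number lowest or highest in both groups was not counted. Nothing is therefore read from such a match, here or for genes named below. For Per2 the libraries of number 1 nearly coincided, at 20.3 and 20.1 CPM, and those of number 2 were close, at 36.6 and 33.2 CPM, but those of number 3 were the farthest apart of all, at 37.4 CPM in Ly6C-high and 14.8 CPM in Ly6C-low cells. Its range over numbers was 0.78 on the log2 scale (edgeR adjusted p 0.718).

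Leaving out either library numbered 3 changed these calls. Without Ly6C-high replicate 3 Per1 and Per2 both passed, with ranges of 0.65 and 1.2 (edgeR adjusted p 9.06e-07 and 5.26e-15), and without Ly6C-low replicate 3 both passed as well, with ranges of 0.83 and 0.86 (2.66e-08 and 2.44e-10). These fits called 10.6% and 4.14% of all genes and had 1 residual degree of freedom. Their prior degrees of freedom, which weigh the trend of spread over all genes against a gene's own spread, were 893 and 782 for Per1 and infinite for Per2, against 6.19 for Per1 and 1.61 for Per2 with all 6 libraries, so these p-values carry almost none of the spread of Per1 and none of that of Per2. The other members ranged over numbers by 0.18 (Clock) to 0.60 (Nr1d2), with edgeR adjusted p from 0.594 to 0.912. Single libraries moved these ranges: that of Dbp (0.43) was 1.18 without Ly6C-low replicate 1 and 1.14 without Ly6C-low replicate 2, and that of Nr1d2 was 0.26 when Ly6C-high replicate 3 was left out and 1.13 when Ly6C-low replicate 3 was. The range of Cry2 (0.44) was 0.18 without Ly6C-low replicate 1 and 0.69 without Ly6C-high replicate 1. The median range over the 8 was 0.43, beside 0.25 for all genes tested. A range cannot fall below 0 and widens with counting noise, and Arntl, Cry2, Nr1d2 and Dbp had at most 95 counts per library. Among the better covered members Per1 (0.64) and Per2 (0.78) lay above 0.25, and Cry1 (0.23) and Clock (0.18) below it.

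**Figure D3:**
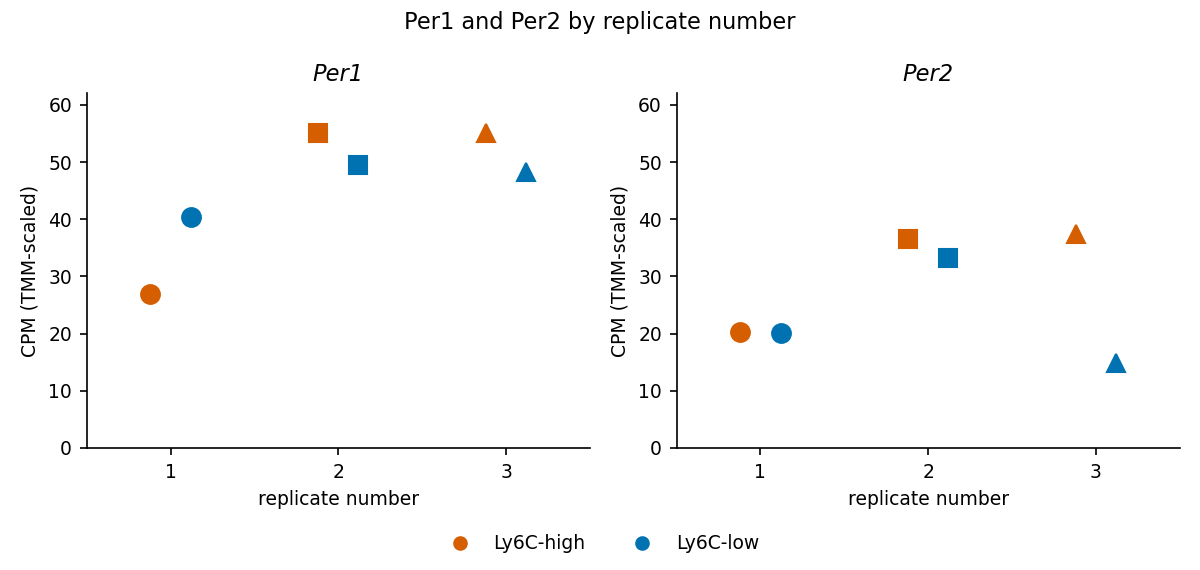
Per1 (left) and Per2 (right) in CPM by replicate number, Ly6C-high in orange and Ly6C-low in blue, 1 point per library. Number 1 is low for Per1 in both groups; for Per2 numbers 1 and 2 match between groups and number 3 does not.

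By the root mean square difference of log2 CPM, centred per gene over the 6 libraries, the profiles closest to Per1 among 6969 genes of at least 5 CPM were Sik1, a salt-inducible kinase, at 0.0953, Il4ra, the interleukin-4 receptor chain, at 0.125, and Cebpb, a transcription factor, at 0.128, where Per1 itself had a standard deviation of 0.392. Like Per1, each of the 3 was lowest in Ly6C-high replicate 1 (log2 deviations from its mean of -0.57 for Sik1, -0.49 for Il4ra and -0.67 for Cebpb). Their choice by likeness to Per1 favours this, so it is not a separate result. The profiles closest to Cry2 were C87436 at 0.0927, Carm1, an arginine methyltransferase, at 0.0931 and Olfr457 at 0.112. These names describe likeness over 6 libraries and were given no test.

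Of 12 further clock transcription factors and feedback genes 8 were tested and 0 passed in either direction between the groups; 7 had a log2 fold change above 0 and the median was 0.08. Nfil3, a repressor that competes with DBP for D-box sequences, measured 294 ± 32.4 CPM in Ly6C-high and 293 ± 26.8 CPM in Ly6C-low libraries (SD, n = 3 each), the highest mean of the 12; its naming followed a look at its values. Arntl2, a paralogue of Arntl, measured 2.80, 2.72 and 4.55 CPM in the Ly6C-high libraries, against 2.00, 2.15 and 3.34 CPM in the Ly6C-low libraries. The library numbered 3 was the highest for Arntl2 in both groups, and its range over numbers was 0.72 (edgeR adjusted p 0.351). Bhlhe40, a repressor that binds E-boxes, averaged 62.6 ± 4.64 CPM in Ly6C-high and 67.7 ± 11.6 CPM in Ly6C-low libraries, with a range over numbers of 0.34 (edgeR adjusted p 0.357). Hlf, a relative of Dbp, averaged 0.786 ± 0.496 CPM in Ly6C-high and 0.739 ± 0.14 CPM in Ly6C-low libraries. Npas2, which can stand in for Clock, had 1 count in all 6 libraries together.

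Genes that modify or destroy PER and CRY proteins did not pass either test. Of 14 listed 12 were tested, 0 passed in either fit, 9 had a log2 fold change above 0 and the median was 0.08. Prkaa1, a catalytic subunit of AMP-activated kinase, averaged 179 ± 8.55 CPM in Ly6C-high and 151 ± 34.6 CPM in Ly6C-low libraries, and Ube3a, a ubiquitin ligase, 75.8 ± 12.2 CPM in Ly6C-high and 69.2 ± 11.8 CPM in Ly6C-low libraries. Of the 12 cofactors and chromatin enzymes all were tested and 0 passed in either fit, with 6 above 0, 6 below and a median of -0.0032. Kmt2a, a histone methyltransferase, had a range over numbers of 0.41 (edgeR adjusted p 0.352), Ddb1 a log2 fold change of -0.18 and Ncor1, a corepressor used by REV-ERB, one of 0.14.

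Of 7 clock outputs and neutrophil ageing genes 6 were tested. None passed between the groups (4 above 0, 2 below, median 0.11), and 1 passed among replicate numbers. Cdkn1a, which encodes the cell cycle inhibitor p21, measured 15.1, 21.8 and 27.3 CPM in Ly6C-high replicates 1, 2 and 3, against 21.5, 25.7 and 46.0 CPM in Ly6C-low replicates 1, 2 and 3. Number 1 was lowest and number 3 highest in both groups, with a range of 0.98 on the log2 scale (edgeR adjusted p 0.0187). The call was lost without Ly6C-high replicate 1 (0.251) or Ly6C-low replicate 1 (0.426), with limma voom (0.0615), with length-scaled TPM (0.109) and without the group term (0.671), while the range itself lay between 0.97 and 1.0 in these fits. Cxcr4 and Nampt were chosen for naming with their values in view. Cxcr4, a chemokine receptor of aged neutrophils, averaged 253 ± 42.1 CPM in Ly6C-high and 340 ± 68.3 CPM in Ly6C-low libraries (log2 fold change -0.43, edgeR adjusted p 0.304). Nampt, an enzyme of NAD synthesis whose gene is a clock output in liver, averaged 190 ± 16.2 CPM in Ly6C-high and 149 ± 13.2 CPM in Ly6C-low libraries (log2 fold change 0.35, edgeR adjusted p 0.207). The groups of Nampt did not overlap, as for 21.1% of all genes tested, while those of Cxcr4 overlapped.

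All 7 glucocorticoid response genes were tested and 0 passed in either fit, with 3 above 0, 4 below and a median of -0.03 between the groups. Dusp1, a phosphatase gene, measured 1075, 1621 and 1676 CPM in Ly6C-high replicates 1, 2 and 3, against 1313, 2062 and 1812 CPM in Ly6C-low replicates 1, 2 and 3. The library numbered 1 was the lowest in each group, and the range of Dusp1 over numbers was 0.62 (edgeR adjusted p 0.0571). Tsc22d3, which encodes the glucocorticoid-induced leucine zipper, measured 134, 190 and 173 CPM in Ly6C-high replicates 1, 2 and 3, against 150, 226 and 131 CPM in Ly6C-low replicates 1, 2 and 3, a range over numbers of 0.55 (edgeR adjusted p 0.254). Nr3c1, the glucocorticoid receptor gene, averaged 285 ± 10.9 CPM in Ly6C-high and 244 ± 37.9 CPM in Ly6C-low libraries (log2 fold change 0.23, edgeR adjusted p 0.394).

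**Figure D4:**
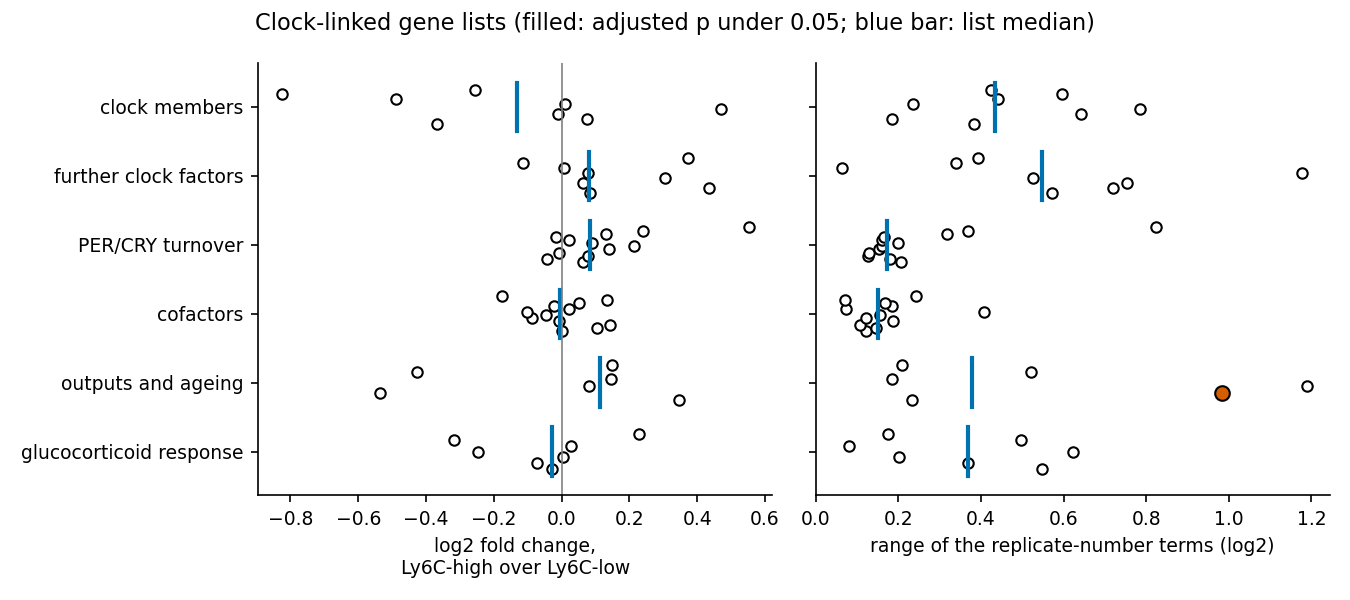
Tested genes of the clock members and of 5 further lists: log2 fold change of Ly6C-high over Ly6C-low (left) and range of the replicate-number terms (right, log2). Each circle is a gene and blue bars are list medians; the single filled circle past an adjusted p of 0.05 is Cdkn1a among replicate numbers.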

How the data were processed

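Libraries were made with the Kapa mRNA Hyper prep kit, per the labels' protocols; such kits capture poly(A) RNA and mark strand. Per the submitters' processing notes the authors used kallisto and build GRCm39, with version, index and strand setting not given in the sources used here. Per the file headers, each library's table gave estimated counts, TPM, length and effective length for 117486 transcripts. The deposited estimated counts summed to between 17192372 and 20973623 per library. Transcripts were matched by identifier to GENCODE M21 (GRCm38, used for names and overlaps of genes); those matched held between 99.747% and 99.767% of the counts. Deposited TPM and estimated counts were summed per gene, and counts rounded.

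The tool for every main test was edgeR 4.0.16 under R 4.3.3 (filterByExpr filter, TMM scaling, robust quasi-likelihood F test, Benjamini-Hochberg over 11406 genes) with group as the term, and for replicate number with number and group. limma 3.58.1 and DESeq2 1.42.0 served as alternatives; the steps were checked on simulated counts. Each library pair differed by a chi-square per gene of 14.3 to 69.1, far above sampling noise. Intervals are 95% and counting intervals cover counting error only. The members, lists and tests were chosen with earlier results of these data known. All members are named; of each list, genes past the threshold in either fit, or else the 3 with the smallest p, except that some are not reported here. Thra was named for its overlap with Nr1d1, and the 3 profiles closest to the member with the smallest p in each fit.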

Additional observations from a re-analysis of the deposited data

How the results depend on the processing

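Between the groups, 0 members passed under every alternative run (other scalings, filters and tests, length-scaled TPM, coding genes alone, each library left out, the replicate block), though DESeq2 gave no adjusted p for Arntl, Cry2, Nr1d2 and Dbp. Scaling by library size alone put the median over all genes tested at -0.11 (log2) and gave -0.028 for Clock and -0.10 for Cry1; Cry1 was also -0.0018 with no filter on low counts and -0.011 with length-scaled TPM. With 1 library left out the log2 fold change ranged from -0.17 to 0.26 for Per1, from -0.047 to 0.11 for Cry1, from -0.73 to 0.0002 for Dbp, from 0.24 to 0.85 for Per2, from -0.48 to -0.21 for Arntl, from -0.67 to -0.36 for Cry2 and from -1.03 to -0.55 for Nr1d2. Among replicate numbers, no filter on low counts gave 2 members, Per1 (0.64) and Per2 (0.78), in a fit whose prior degrees of freedom were infinite for 89.2% of genes, 5697 for Per1 and 36.1 for Per2; with 1 library left out the count ranged from 0 to 2, and the range over numbers from 0.28 to 1.04 for Per1 and from 0.50 to 1.2 for Per2. All genes called among numbers were 63, against 36 with limma voom, 120 with DESeq2 and 0 without the group term. With the replicate block 61 genes passed between the groups, against 4 without it, and 0 members; the smallest adjusted p of a member was 0.269 (Cry2, -0.48). Deviations from the group means correlated across genes at 0.24, -0.04 and 0.24 for numbers 1, 2 and 3, and since the value for number 2 was under 0.1 equal numbers were not taken as pairs; 4 of 6 libraries correlated best with their own number. Depth limits Nr1d1, Nr1d2 and Dbp, at 17 counts or fewer per library.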
